A study of Mus musculus with 12 samples.

Results

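The proteasome genes were chosen by symbol as every gene whose name begins with Psma, Psmb, Psmc, Psmd, Psme, Psmf or Psmg and a number, leaving out the interferon-inducible catalytic subunits Psmb8, Psmb9 and Psmb10. The rule found 46 of the 21937 genes in the table and used no measured value. RNA was measured by sequencing in a light membrane fraction of brain enriched for myelin, the lipid-rich sheath that oligodendrocytes wrap around axons. All samples came from male WT mice of the c57Bl6/N strain, an inbred laboratory line, at postnatal day 18 (P18, while myelin is still being laid down), postnatal day 75 (P75, young adults), 6 months and 24 months (old age), with 3 samples at each age and 12 in all. Nothing in the labels says whether the numbered samples of an age came from separate animals, so the p-values reflect only how far these samples differ, which may be technical.

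The proteasome is the protease that degrades most ubiquitin-tagged proteins of the cytosol and nucleus. Its barrel-shaped 20S core is a stack of rings of alpha and beta subunits with the cutting sites inside, and a 19S particle on its end recognises the ubiquitin tag, removes it, unfolds the protein with a ring of ATPases and feeds it into the core. Dedicated chaperones assemble both parts, other caps and an inhibitor compete for the ends of the core, and the transcription factor Nrf1 (Nfe2l1) is known to raise the subunit genes together when proteasome capacity falls short.

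By role the 46 genes comprised 8 alpha subunits, 8 beta subunits, 6 ATPases of the 19S base, 11 other 19S subunits, 3 chaperones of 19S assembly, 4 chaperones of 20S assembly, 5 activators or inhibitors of the core and 1 gene that is no proteasome gene. That gene, Psmc3ip, encodes a meiotic recombination factor that shares only the start of its symbol, and its normalised count was 45.1 to 80.7. The name "constitutive" did not hold for all the others. Psma8, the alpha subunit of testis, had normalised counts of 1.78 to 10.7 and did not reach the level needed for testing, and Psmb11, the beta subunit of thymus, had 9.04 to 18.04. Neither Psmb11 nor Psmc3ip passed the test at any age. The remaining 14 core subunits, Psma1 to Psma7 and Psmb1 to Psmb7, had from 1483 to 8856 recovered reads per sample. RefSeq lists pseudogene copies of Psma5, Psmb5, Psmb6 and Psmb7 and a near copy of Psme2, so reads of these genes may have been split or dropped in counting and their levels are uncertain.

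Depth was 20299052 to 27214385 reads per sample, with 16949 to 17261 genes detected. Values are normalised counts, in which the authors divided the reads of each sample by 1 size factor. Of the 21937 genes, 14987 reached the level needed for testing, among them 45 of the 46 proteasome genes. Of all normalised counts, the myelin markers, Mbp above all, took 11.0% to 23.1% in P18 samples and 5.73% to 8.16% in P75 samples, then 6.31% to 9.87% at 6 months and 6.43% to 8.68% at 24 months. Neuronal, astrocyte, microglial and endothelial markers were also detected at every age, so the fraction held RNA of other cell types. The RNA is that of a mixture, in which fewer cells of a type and less RNA per cell cannot be told apart.

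Proteasome genes as a group were lower in the 2 older ages than in the 2 younger ones. The largest difference in summed counts was in the 20S core. In the 19S particle 3 subunits, Psmd1, Psmd11 and Psmd13, rose at 6 months against P75 and fell at 24 months against 6 months. Of these, only Psmd11 kept both calls in every fit that left out 1 sample. The rise of Psmd1 was lost in 3 such fits and the fall of Psmd13 in 6. In the comparison of 6 months with P75, 28 of the 45 tested genes fell, 5 rose and 12 did not pass the test, with a median log2 fold change of -0.44 against 0.003 over all genes. In that comparison 25.4% of all tested genes fell and 27.1% rose, by limma with Benjamini-Hochberg adjustment over all 14987 genes at a threshold of 0.05. At 24 months against P18, the span of the whole series, 29 fell, none rose and 16 did not pass, with a median of -0.41 against -0.01 over all genes, where 30.5% of all tested genes fell and 32.0% rose. At an unadjusted p under 0.05, 30 were lower and 0 higher in that limma comparison, and edgeR and DESeq2 also called none higher, but with a trend in transcript length removed 24 were lower and 2 higher. At P75 against P18, 8 genes fell and 1 rose, against backgrounds of 18.7% and 21.7%. At 24 months against 6 months, 4 fell and 1 rose, against 8.34% and 10.8%. Counted in both directions, 9 of 45 were called at P75 against P18 (40.4% of all tested genes), 33 at 6 months against P75 (52.4%), 5 at 24 months against 6 months (19.2%) and 29 at 24 months against P18 (62.5%). The F test over the ages was passed by 38 of 45, beside 77.4% of all tested genes. Groups that did not overlap were counted too: at 6 months 30 genes lay wholly below P75 and 7 above (30.6% and 31.7% of all tested genes), and at 24 months 31 lay below P18 and 2 above (32.8% and 33.2%). At P75 against P18 the counts were 9 below and 2 above (22.4% and 24.7%), and at 24 months against 6 months 9 below and 10 above (19.9% and 23.2%). These comparisons share samples and are not independent of each other.

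**Figure D1:**
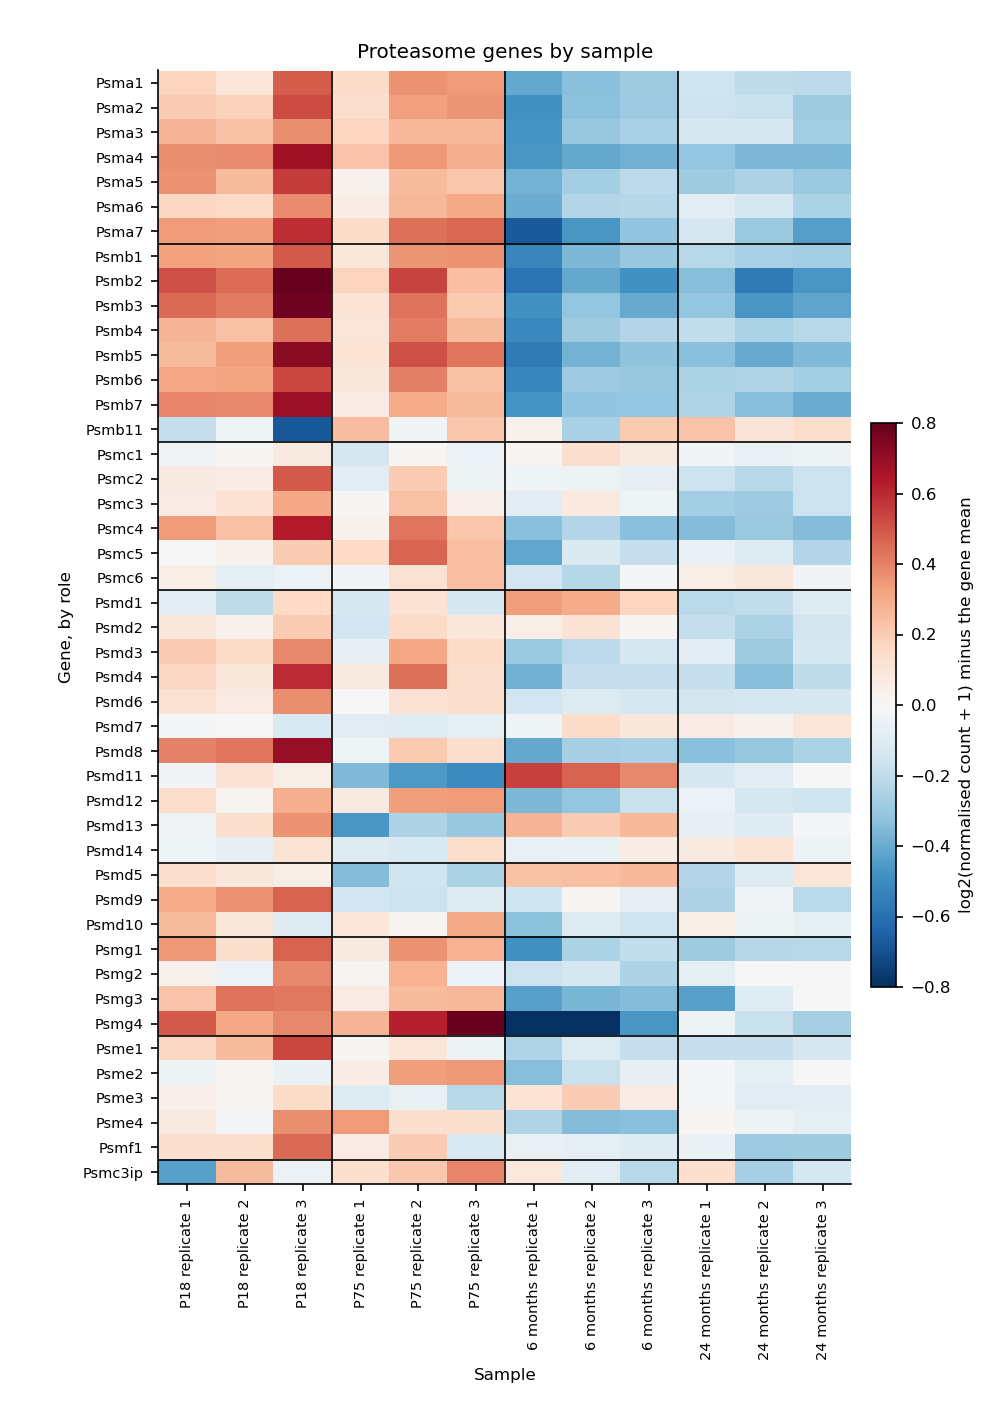
Normalised counts of the 45 tested genes in the 12 samples, as log2(value + 1) minus the mean of the gene, with the colour scale ending at 0.8 in either direction and genes grouped by role between the horizontal lines. The alpha and beta rows are red at P18 and P75 and blue at 6 and 24 months, Psmb11 excepted, and the rows of Psmd11, Psmd13 and Psmd5 are red at 6 months.

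The 14 core subunits all fell at 6 months against P75 before any correction for transcript length. Every one of the 14 passed the test, with log2 fold changes from -0.83 for Psma7 to -0.46 for Psma5 and a median of -0.63, and in all 14 the 3 samples at 6 months lay below the 3 samples at P75. At 24 months against P18 the 14 core subunits again all fell, from -1.09 for Psmb2 to -0.39 for Psma6, with a median of -0.65. Between 24 and 6 months none of the 14 passed the test, with log2 fold changes from 0.00 to 0.20 and adjusted p-values from 0.176 to 0.997 by limma. None had an unadjusted p under 0.05, and edgeR and DESeq2 also called none. At P75 against P18, Psmb3 and Psmb7 fell and the other 12 did not pass. The mean was lowest at 6 months for all 14, and highest at P18 for 13 of them, Psma1 having its highest at P75. None of these values is corrected for transcript length. With the length trend removed, 7 of the 14 fell at 6 months against P75. The core median at 24 months against 6 months was then -0.08 in place of 0.12, so the place of 6 months as the lowest age rests on uncorrected values.

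The genes of the proteolytic subunits, which carry the cutting sites of the core, show the pattern in single samples. Psmb5, the chymotrypsin-like subunit and the target of the drug bortezomib, had 3454, 3644 and 4773 normalised counts at P18, 3125, 4136 and 3902 at P75, 1959, 2223 and 2313 at 6 months, and 2300, 2186 and 2263 at 24 months. All 6 samples of the older ages lay below all 6 of the younger ages. Its log2 fold change was -0.77 ± 0.122 (SE) at 6 months against P75 (limma, adjusted p = 7e-05) and -0.80 ± 0.122 at 24 months against P18 (adjusted p = 2.69e-05). Psmb6, the caspase-like subunit, had 4190, 4211 and 4911 at P18, 3609, 4487 and 3983 at P75, 2354, 2764 and 2745 at 6 months, and 2845, 2860 and 2800 at 24 months. The older and younger ages did not overlap, and the gene fell by 0.62 on the log2 scale at 6 months against P75 (SE 0.098, limma adjusted p = 7.4e-05). Psmb7, the trypsin-like subunit, had 7241, 7216 and 8895 at P18, 5779, 6792 and 6582 at P75, 3972, 4449 and 4463 at 6 months, and 4684, 4358 and 4195 at 24 months. It already fell at P75 against P18 (-0.28 ± 0.101, limma adjusted p = 0.0345), with no overlap between the ages. The test was no longer passed in fits without P18 replicate 3 (-0.18, adjusted p = 0.129) or P75 replicate 1 (-0.21, adjusted p = 0.149). At 6 months against P75 the change of Psmb7 was -0.57 ± 0.101 (adjusted p = 2.02e-04).

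Among the structural subunits of the rings, Psma7 had the largest fall of the core at 6 months against P75 and Psmb2 at 24 months against P18. Neither rank is corrected for length. With the length trend removed, Psma7 stood at -0.28 at 6 months against P75, beside -0.73 for Psma2. Psmb2 then stood at -0.21 (limma adjusted p = 0.153) and Psmb3 at 0.03. At 24 months against P18 Psmb2 stood at -0.74 in that fit. Psma7, of the alpha ring, had 4534, 4515 and 5389 normalised counts at P18, 3956, 4862 and 4924 at P75, 2244, 2585 and 2879 at 6 months, and 3262, 2914 and 2637 at 24 months. Its values at 6 months were all below those at P75, with a fold change of 0.561 (log2 -0.83 ± 0.117, limma adjusted p = 2.33e-05). Psmb2, of the beta ring, had 3398, 3238 and 4535 at P18, 2682, 3457 and 2806 at P75, 1578, 1787 and 1697 at 6 months, and 1878, 1603 and 1721 at 24 months. At 24 months the level was 0.470 of that at P18 (log2 -1.09 ± 0.123, limma adjusted p = 1.01e-06), the largest fall of the 45 genes in that comparison, and no sample of the older ages reached the younger ages. Psma4, whose tail helps to close the gate into the core in yeast and mammals, averaged 4946 ± 608 at P18 and 4333 ± 172 at P75, then 2651 ± 74.9 at 6 months and 2793 ± 60.4 at 24 months (SD, n = 3 each). It had the lowest F-test p-value of the proteasome genes (adjusted p = 1.72e-07, limma). Psmb3, a beta subunit without a cutting site, averaged 4044 ± 581, 3287 ± 387, 2086 ± 127 and 2087 ± 118 at the same ages. Its fall at P75 against P18 (-0.30 ± 0.106, limma adjusted p = 0.0355) was lost without P18 replicate 3 (-0.18), P75 replicate 1 (-0.22) or P75 replicate 3 (-0.28).

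**Figure D2:**
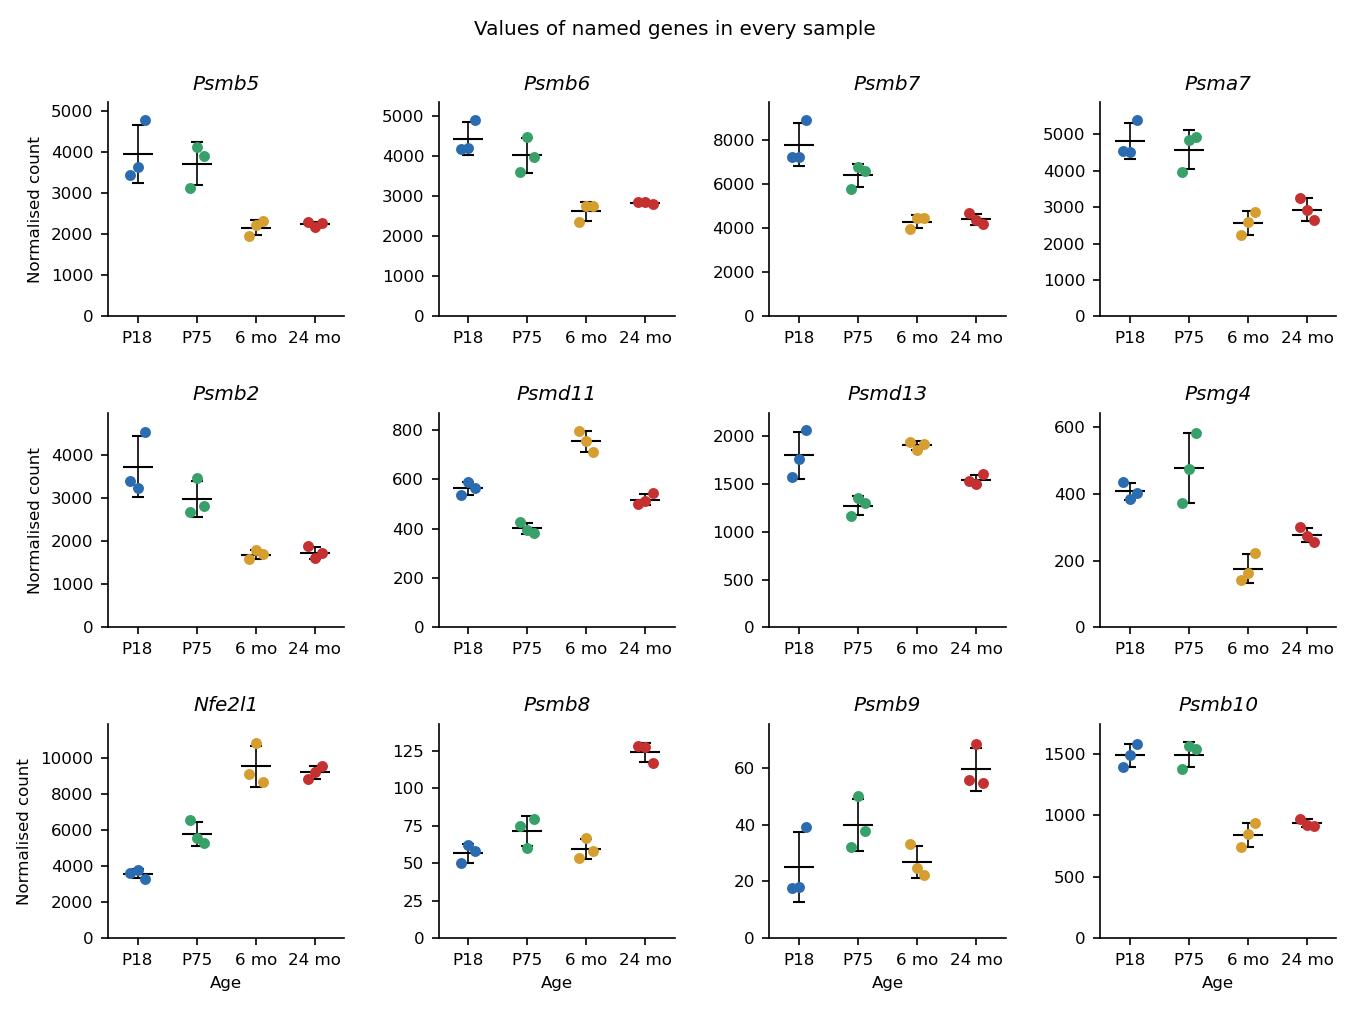
Normalised counts of 8 proteasome genes, of the transcription factor gene Nfe2l1 and of the 3 immunoproteasome genes in every sample (points), with the mean and SD of the 3 samples of each age (bars). The core subunits and Psmb10 sit lower at 6 and 24 months, Psmd11 is highest in all 3 samples at 6 months, Psmd13 is higher at 6 months than in every sample at P75 and 24 months, and Psmb8 and Psmb9 are highest at 24 months.

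The fall of the core at 6 months stood beside a trend with transcript length across all genes. Among all tested genes with an annotated principal transcript under 1500 bases, 56.9% fell and 6.66% rose at 6 months against P75, beside 16.4% and 34.2% of those over 2500 bases. The principal transcripts of the 14 core subunits had a median length of 1163 bases, from 766 to 2911, and those of the 17 subunits of the 19S particle a median of 1636. Of the 23 tested proteasome genes under 1500 bases 20 fell and none rose, and of the 11 over 2500 bases 3 fell and 4 rose. When the length trend of each sample was removed, an alternative added after seeing the data, 16 of the 45 proteasome genes fell and 6 rose. In that fit 3696 of all 14832 genes fell and 3571 rose. Of the 14 core subunits 7 still fell, namely Psma1, Psma2, Psma3, Psma4, Psma7, Psmb1 and Psmb4, with a core median of -0.22. Psma2 and Psma3, which have the longest transcripts of the core, then stood at -0.73 and -0.65, while Psmb5 stood at -0.20 (adjusted p = 0.128), Psmb7 at -0.18 (0.0949) and Psmb6 at 0.03 (0.78). For 24 months against P18 the same step left 12 of the 14 core subunits called, Psma1 and Psma6 excepted, with a median of -0.48. There 4540 of all 14832 genes fell and 4618 rose. At 24 months against 6 months the trend with length ran the other way. Of all tested genes under 1500 bases 24.0% rose and 0.626% fell in that comparison, beside 7.81% and 11.8% of those over 2500 bases. With the trend removed the core median there was -0.08 in place of 0.12. Whether RNA length, library preparation or RNA quality had a part in the fall was not tested.

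No single library decided the fall of the core. All 14 core subunits stayed called at 6 months against P75 and at 24 months against P18 in each of the 12 fits that left out 1 sample, with medians from -0.70 to -0.57 for the first and -0.71 to -0.58 for the second. Samples of an age did differ from each other. P18 replicate 3 had the highest value of its age for all 14 core subunits and for 14 of the 17 subunits of the 19S particle, and it also had the lowest share of myelin markers at P18, 11.0% beside 17.3% and 23.1%. P75 replicate 1 and 6 months replicate 1 had the lowest value of their ages for all 14 core subunits. Among cell type markers at 6 months against P75, 6 of 10 neuronal genes rose and 2 fell, with their sum at 0.783% to 0.897% of all counts at 6 months and 0.863% to 0.992% at P75. Of 10 myelin genes 1 rose and none fell, also at an unadjusted p under 0.05. Of 10 microglial markers 5 rose and 1 fell, with their sum at 0.0461% to 0.0544% at 6 months and 0.0388% to 0.0425% at P75. Of 8 astrocyte markers 2 rose and 1 fell, and of 7 endothelial markers 2 rose and 1 fell. At 24 months against P18, 9 of 10 microglial markers rose and 6 of 10 myelin genes fell, with the microglial sum at 0.0634% to 0.0818% at 24 months and 0.0258% to 0.0283% at P18. In that comparison 3 neuronal genes rose and 3 fell, 3 astrocyte markers rose and 2 fell, and 3 endothelial markers rose and 1 fell. Of all tested genes, 27.1% rose and 25.4% fell at 6 months against P75. At 24 months against P18 these shares were 32.0% and 30.5%. The part of these markers in the core result was not tested.

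Promoter sequences are shown for core genes that fell and for Psmd11, the 19S gene that rose most at 6 months, because the subunit genes are known to share regulators. Promoters of 38 of the 46 genes were found in the RefSeq table (GRCm38.p6), as 41 windows of 250 bases before the transcription start. Each is printed on its own strand, with capitals for the core of the antioxidant response element to which Nrf1 and Nrf2 bind (TGACNNNGC) and for the CCAAT box, both searched on both strands.
Psmb5 (chr14:54617996-54618245, minus strand): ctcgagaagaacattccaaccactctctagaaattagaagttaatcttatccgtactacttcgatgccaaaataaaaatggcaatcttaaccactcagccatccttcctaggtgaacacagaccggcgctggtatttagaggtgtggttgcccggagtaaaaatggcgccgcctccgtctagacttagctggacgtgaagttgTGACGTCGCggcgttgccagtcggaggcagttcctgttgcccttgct
Psmb6 (chr11:70525107-70525356, plus strand): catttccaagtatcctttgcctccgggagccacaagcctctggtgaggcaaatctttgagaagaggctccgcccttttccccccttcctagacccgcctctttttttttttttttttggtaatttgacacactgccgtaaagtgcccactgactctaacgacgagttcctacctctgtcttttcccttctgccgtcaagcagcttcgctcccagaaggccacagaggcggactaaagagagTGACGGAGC
Psma7 (chr2:180042465-180042714, minus strand): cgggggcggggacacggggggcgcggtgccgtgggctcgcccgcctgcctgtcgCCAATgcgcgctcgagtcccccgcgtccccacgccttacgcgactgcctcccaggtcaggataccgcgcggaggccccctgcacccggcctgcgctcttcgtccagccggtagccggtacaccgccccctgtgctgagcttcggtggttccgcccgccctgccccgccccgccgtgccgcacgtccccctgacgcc
Psmd11 (chr11:80428365-80428614, plus strand): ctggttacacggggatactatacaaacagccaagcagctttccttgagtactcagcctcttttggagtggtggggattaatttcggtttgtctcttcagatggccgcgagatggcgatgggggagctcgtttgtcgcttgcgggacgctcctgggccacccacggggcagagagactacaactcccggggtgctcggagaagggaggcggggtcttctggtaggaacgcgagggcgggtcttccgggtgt
Psmb5 and Psmb6 held the response element core at 47 and 9 bases before the start, counting to the first base of the match, Psma7 held a CCAAT box, and the window of Psmd11 held neither. The response element core was present in 5 of the 41 windows (12.2%), those of Psmb5, Psmb6, Psmc6, Psmd9 and Psmd12, beside 10.2% of 32851 mouse promoters. In Psmd9 it overlapped a GC box (GGGCGG). Psmb5 and Psmb6 were the exception in the core, where 2 of 12 windows held the element (16.7%), beside 2 of 15 windows of 19S subunits (13.3%). Other core genes that fell, such as Psma1, Psma4 and Psmb3, did not hold it. The CCAAT box was present in 14 of 41 windows (34.1%), beside 33.8% of all promoters, and the GC box in 22 of 41 (53.7%), beside 32.7%. A match of letters is a description of the window and not a binding site.

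The 19S particle did not move as a block. Of its 17 subunits, 8 fell, 3 rose and 6 did not pass at 6 months against P75, with a median log2 fold change of -0.11 and a range from -0.53 to 0.91. At 24 months against P18, 9 fell and none rose, with a median of -0.27. At an unadjusted p under 0.05, 10 were lower and 0 higher by limma. The age with the highest mean was P18 for 8 of the 17 and P75 for 3, while 5 peaked at 6 months and 1 at 24 months. With the length trend removed, 6 fell and 4 rose at 6 months against P75, and 7 fell and 1 rose at 24 months against P18. Of all 14832 genes in that fit, 3696 fell and 3571 rose in the first comparison. In the second, 4540 fell and 4618 rose.

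Among the 6 ATPases of the base, which unfold the substrate, Psmc4 and Psmc5 both fell by 0.53 at 6 months against P75 on the log2 scale (limma adjusted p = 6.68e-04 and 5.80e-04) and Psmc6 fell by 0.24 (adjusted p = 0.0286). Psmc4 had 3246, 3024 and 3989 normalised counts at P18, 2620, 3451 and 2995 at P75, 2035, 2176 and 2033 at 6 months, and 2015, 2089 and 2015 at 24 months, so that the older ages lay below the younger ones. The call of Psmc6 was lost without P75 replicate 2 (-0.24), P75 replicate 3 (-0.18), 6 months replicate 1 (-0.23) or 6 months replicate 2 (-0.19). Psmc1 did not pass at any age, with means of 3487 ± 127 at P18 and 3313 ± 162 at P75, then 3621 ± 136 at 6 months and 3354 ± 37.96 at 24 months (SD, n = 3 each). Psmc2 and Psmc3 fell at 24 months against P18, by 0.40 and 0.41, and did not pass at 6 months against P75.

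Psmd11, the lid subunit that braces the 19S particle against the core, showed the largest rise. It had 537, 589 and 562 normalised counts at P18, 427, 396 and 381 at P75, 795, 755 and 710 at 6 months, and 498, 512 and 542 at 24 months. All 3 samples at 6 months were above every sample of the other ages, and all 3 at P75 were below. The log2 fold changes were -0.49 ± 0.086 at P75 against P18 (limma adjusted p = 3.32e-04), 0.91 ± 0.086 at 6 months against P75 (adjusted p = 7.24e-07) and -0.54 ± 0.086 at 24 months against 6 months (adjusted p = 0.00121). The rise at 6 months was 1.88-fold, and 0.83 on the log2 scale with the length trend removed. Psmd13, another lid subunit, had 1579, 1760 and 2067 at P18, 1164, 1354 and 1303 at P75, 1938, 1855 and 1923 at 6 months, and 1535, 1496 and 1600 at 24 months. It followed the same order, with log2 fold changes of -0.49 ± 0.095, 0.58 ± 0.095 and -0.30 ± 0.095 over the consecutive ages (limma adjusted p = 6.46e-04, 9.42e-05 and 0.0355). The last of these was lost without any single one of the 6 samples compared, with adjusted p-values from 0.0537 to 0.118.

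Psmd1, the large scaffold subunit of the base, had 2706, 2504 and 3210 normalised counts at P18, 2635, 3115 and 2632 at P75, 3640, 3540 and 3247 at 6 months, and 2477, 2513 and 2668 at 24 months. The values at 6 months lay above those of all other ages. It rose by 0.32 ± 0.099 at 6 months against P75 (limma adjusted p = 0.0131) and fell by 0.44 ± 0.099 at 24 months against 6 months (adjusted p = 0.0074). The rise was lost without P75 replicate 1 (0.28, adjusted p = 0.0532), P75 replicate 3 (0.28, 0.0523) or 6 months replicate 1 (0.28, 0.0517), and with the length trend removed (0.21, 0.0781). Psmd8, a lid subunit, fell over both of the first steps, to 3183 ± 272 at P75 against 4220 ± 500 at P18 (-0.40 ± 0.094, limma adjusted p = 0.00283) and to 2384 ± 140 at 6 months against P75 (-0.41 ± 0.094, adjusted p = 0.00159), and was at 2409 ± 67.3 at 24 months (SD, n = 3 each).

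The ubiquitin-handling subunits of the 19S particle differed from each other. Psmd4, a ubiquitin receptor, fell by 0.47 ± 0.125 at 6 months against P75 (limma adjusted p = 0.00482), and this was lost with the length trend removed (-0.18, adjusted p = 0.202). Psmd2, the base scaffold on which shuttle factors dock, did not pass at 6 months (0.03 ± 0.090) and fell by 0.31 at 24 months against P18 (adjusted p = 0.00745). Psmd14, the metalloprotease that removes the ubiquitin chain, and its partner Psmd7 did not pass the F test, with adjusted p-values of 0.856 and 0.166. Psmd14 had 2424, 2371 and 2679 normalised counts at P18, 2314, 2282 and 2739 at P75, 2385, 2391 and 2590 at 6 months, and 2613, 2676 and 2411 at 24 months, with all 4 ages overlapping. Of the other lid subunits, Psmd3, Psmd6 and Psmd12 fell at 6 months against P75, by 0.34, 0.22 and 0.53. The call of Psmd3 was lost without P75 replicate 2 (-0.26), and that of Psmd6 without 24 months replicate 2, any of the 3 samples at 6 months, P75 replicate 2 or P75 replicate 3, with adjusted p-values from 0.056 to 0.111.

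**Figure D3:**
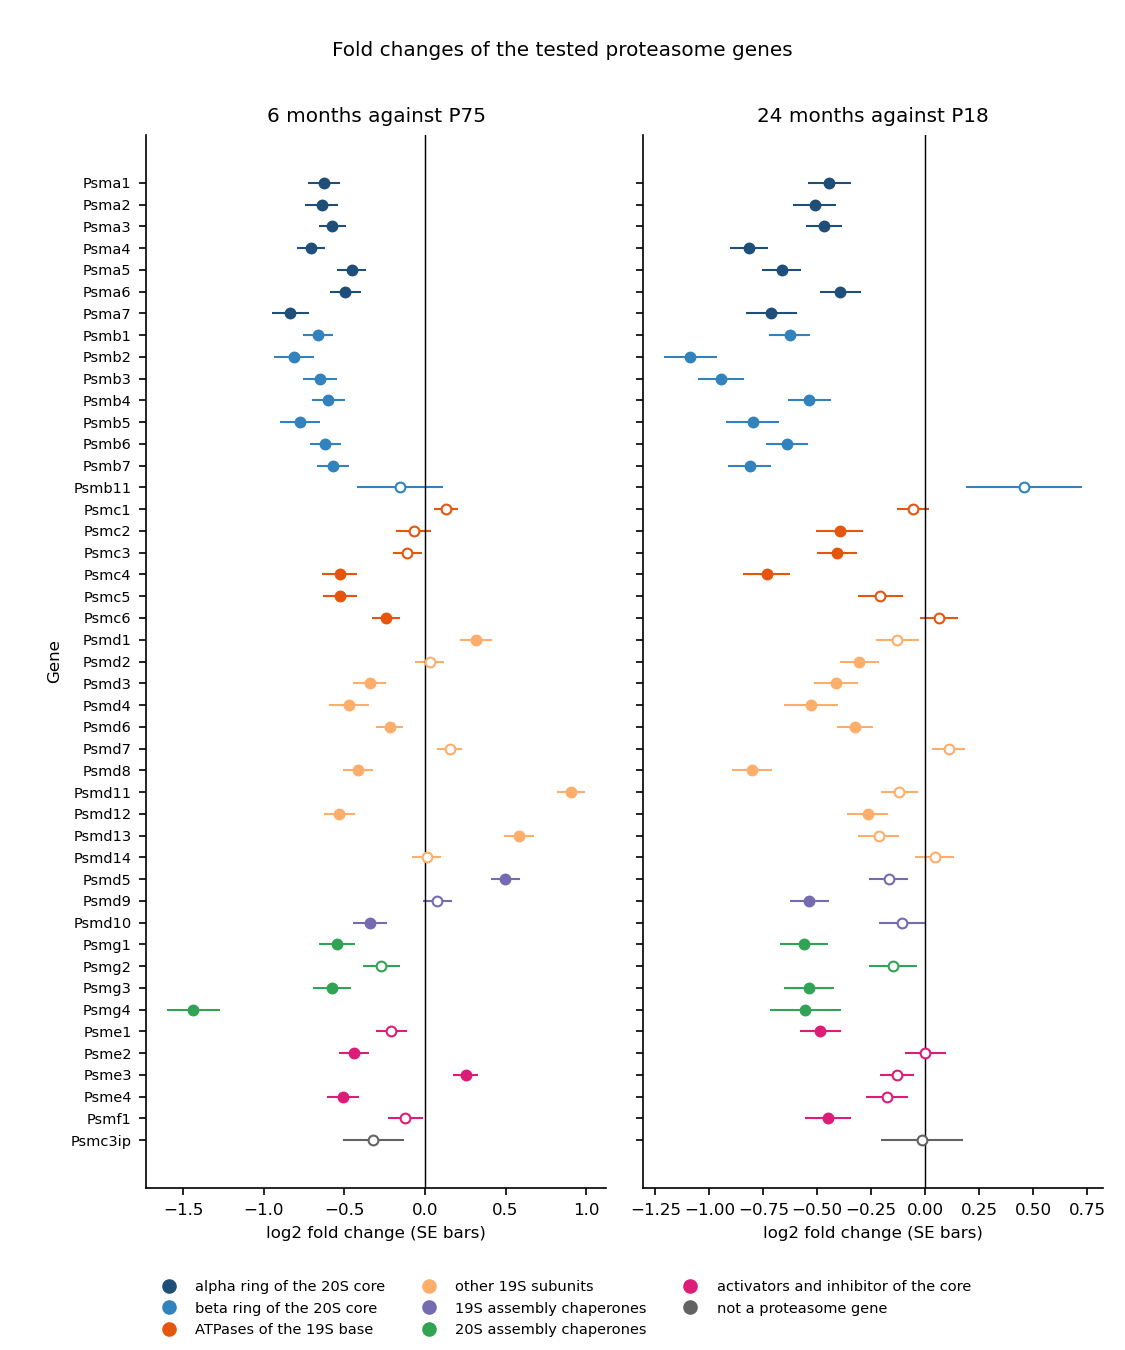
Log2 fold changes with SE bars of the 45 tested genes at 6 months against P75 and at 24 months against P18, coloured by role, filled where the gene passed the test. All alpha and beta points except Psmb11 are filled and left of 0 in both panels, and the 19S points spread over both sides at 6 months.

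Summed over subunits, both the core and the 19S particle were lower at the older ages, the core by more. The 14 core subunits summed to 69668 ± 7800 normalised counts at P18 and 63654 ± 5589 at P75, then to 40872 ± 2898 at 6 months and 43990 ± 1527 at 24 months (SD, n = 3 each). The 17 subunits of the 19S particle summed to 56195 ± 5105, 53774 ± 4455, 48112 ± 1499 and 45849 ± 531 at the same ages. The ratio of the core sum to the 19S sum was 1.22, 1.23 and 1.27 in the samples at P18, 1.17, 1.17 and 1.21 at P75, 0.809, 0.853 and 0.884 at 6 months, and 0.984, 0.965 and 0.929 at 24 months. Ratios at 6 months lay below those at 24 months, and both lay below the younger ages with no overlap, and no test is given for sums over chosen genes. The sums were not corrected for the trend with transcript length, and the core transcripts are the shorter ones by median. With that trend removed, the core median at 6 months against P75 was -0.22 in place of -0.63. The 19S median was then 0.03 in place of -0.11. At 24 months against 6 months the core median was -0.08 in place of 0.12 and the 19S median -0.12 in place of -0.01. The order of the ratios at 6 and 24 months is therefore that of uncorrected sums only. The part of transcript length in the ratio was not tested. The share of all 46 genes in the normalised counts was 0.558% ± 0.103 at P18 and 0.564% ± 0.0507 at P75, then 0.429% ± 0.019 at 6 months and 0.421% ± 0.00445 at 24 months. Leaving Mbp out of the total, which at P18 takes up much of it, gave 0.654%, 0.597%, 0.458% and 0.450%.

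**Figure D4:**
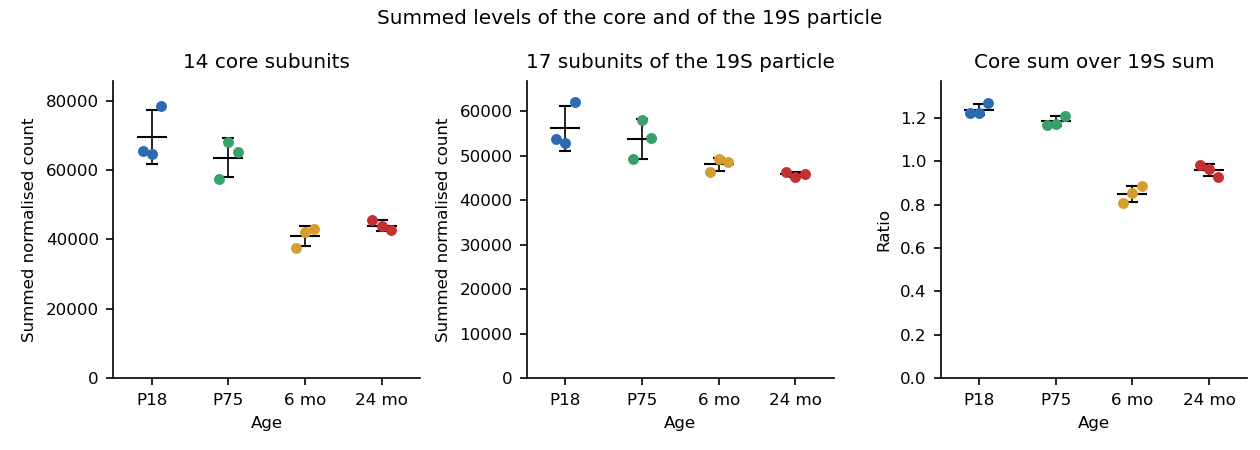
Summed normalised counts of the 14 core subunits and of the 17 subunits of the 19S particle, and the ratio of both sums, in every sample (points) with mean and SD by age (bars). The core sum and the ratio are lower in all samples at 6 and 24 months than in all samples at P18 and P75. The sums are not corrected for transcript length.

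Levels of different genes were compared per kilobase of principal transcript. Averaged over the 12 samples, the 14 core subunits ranged from 1385 normalised counts per kilobase for Psma2 to 4930 for Psmb7, with Psmb4 at 4387 and Psmb6 at 4361 next below. Psma2 and Psma3 (1487 per kilobase) were the lowest of the core and have the longest annotated transcripts, so their place depends on the transcript used. The 19S subunits ranged from 196 per kilobase for Psmd11 to 4445 for the ATPase Psmc5. Psmd11 was therefore at the low end of the complex per length at every age, at 198, 141, 265 and 182 per kilobase from P18 to 24 months. Psma8 and Psmb11 stood at 3.79 and 3.60 per kilobase.

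Of the 4 chaperones that build the core, 3 fell at 6 months against P75, where 25.4% of all tested genes fell. Psmg1 and Psmg2 work as a pair in placing the alpha subunits. Psmg1 fell by 0.55 ± 0.112 at 6 months against P75 (limma adjusted p = 6.88e-04), and Psmg2 did not pass (-0.27 ± 0.112, adjusted p = 0.0535). Of the partner pair, Psmg3 fell by 0.57 ± 0.117 (adjusted p = 6.74e-04) and Psmg4 by 1.44 ± 0.163 (adjusted p = 3.32e-06), the largest change of the 45 genes in that comparison. Psmg4 had 435, 384 and 404 normalised counts at P18, 374, 476 and 583 at P75, 141, 163 and 224 at 6 months, and 301, 274 and 257 at 24 months. Its 6-month samples were the lowest of all, and it rose again at 24 months against 6 months (0.68 ± 0.163, limma adjusted p = 0.0108) with no overlap. That rise was lost without 6 months replicate 1 (0.53, adjusted p = 0.0639) and with the length trend removed (0.29, adjusted p = 0.093). Psmg4 has the shortest principal transcript of the proteasome genes, 555 bases, and with the length trend removed its fall at 6 months was 0.56 on the log2 scale (adjusted p = 8.96e-04), while Psmg1 and Psmg3 no longer passed.

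The chaperones of the 19S base behaved differently from each other. Psmd5 had 902, 875 and 851 normalised counts at P18, 647, 735 and 690 at P75, 969, 972 and 986 at 6 months, and 700, 766 and 878 at 24 months. Its values were highest at 6 months and lowest at P75 with no overlap between those ages, and it fell at P75 (-0.34 ± 0.090, limma adjusted p = 0.00605) and rose at 6 months against P75 (0.50 ± 0.090, adjusted p = 2.31e-04). Its fall at 24 months against 6 months (-0.33 ± 0.090, adjusted p = 0.0202) was lost without 6 months replicate 1 (adjusted p = 0.059) or 2 (0.0585) and without 24 months replicate 1 (0.0956) or 2 (0.0746), and with the length trend removed (-0.25, 0.0606). Psmd9 had 739, 774 and 835 at P18, 542, 533 and 557 at P75, 538, 609 and 575 at 6 months, and 506, 594 and 519 at 24 months. All samples after P18 lay below P18, with a fall of 0.52 ± 0.090 at P75 (limma adjusted p = 2.64e-04) and no later change that passed. Psmd10 (gankyrin) fell by 0.34 ± 0.107 at 6 months against P75 (adjusted p = 0.0134), a call lost without P75 replicate 3 (-0.26) or 6 months replicate 1 (-0.28) and with the length trend removed (-0.10, adjusted p = 0.415).

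Psme1 and Psme2 bind the ends of the core together as the interferon-inducible PA28 cap, and at P75 against P18 Psme1 fell and Psme2 rose. Psme1 had 1126, 1197 and 1458 normalised counts at P18, 1021, 1076 and 978 at P75, 851, 932 and 881 at 6 months, and 886, 882 and 916 at 24 months. It fell at P75 against P18 (-0.29 ± 0.093, limma adjusted p = 0.0207) and at 24 months against P18 (-0.49 ± 0.093, adjusted p = 2.64e-04), without overlap. The fall at P75 was lost without P18 replicate 3 (-0.18), P75 replicate 1 (-0.29) or P75 replicate 3 (-0.26), and the fall at 24 months with the length trend removed (-0.21, adjusted p = 0.0645). Psme2 had 702, 729 and 695 at P18, 753, 910 and 921 at P75, 571, 639 and 691 at 6 months, and 716, 688 and 723 at 24 months. It was highest at P75 and was the 1 gene that rose at P75 against P18 (0.28 ± 0.096, limma adjusted p = 0.0302). It then fell at 6 months against P75 (-0.44 ± 0.096, adjusted p = 0.0011). With the length trend removed this change turned positive and did not pass (0.08, adjusted p = 0.406). The rise at P75 no longer passed when P18 replicate 1 (adjusted p = 0.071), P18 replicate 3 (0.0514), P75 replicate 2 (0.108) or P75 replicate 3 (0.114) was left out.

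Psme3, the nuclear PA28 gamma cap, had 1692, 1670 and 1822 normalised counts at P18, 1529, 1585 and 1415 at P75, 1776, 1898 and 1723 at 6 months, and 1630, 1547 and 1558 at 24 months. Its values at 6 months were above those at P75 and 24 months, and the rise of 0.25 ± 0.078 against P75 passed (limma adjusted p = 0.0118), though not without P75 replicate 3 (0.0526) or 6 months replicate 2 (0.0566). Psme4, the large PA200 cap, moved the other way, with 1106, 1042 and 1359 at P18, 1331, 1149 and 1152 at P75, 889, 827 and 835 at 6 months, and 1063, 1022 and 1000 at 24 months. The samples at 6 months were the lowest of all, and the fall against P75 was 0.51 ± 0.098 on the log2 scale (limma adjusted p = 4.46e-04). Psme4 has the longest principal transcript of the 46 genes, 6491 bases, and its change with the length trend removed was -0.68. Psmf1, the core-binding protein PI31, fell at 24 months against P18, with a mean of 713 ± 68.4 at 24 months and 976 ± 131 at P18 (SD, n = 3 each, -0.45 ± 0.108, limma adjusted p = 0.00166).

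The 3 immunoproteasome subunits, which take the place of the constitutive catalytic subunits after interferon, did not share 1 direction. Psmb8, which replaces Psmb5, had 49.9, 62.1 and 58.3 normalised counts at P18, 75.2, 60.3 and 79.6 at P75, 53.6, 66.6 and 58.4 at 6 months, and 128, 128 and 117 at 24 months. All samples at 24 months were above every sample of the younger ages, with a log2 fold change of 1.05 against 6 months (SE 0.158, limma adjusted p = 7.86e-04). Psmb9, which replaces Psmb6, had 17.8, 18.1 and 39.2 at P18, 32.1, 50.1 and 37.6 at P75, 33.3, 24.9 and 22.4 at 6 months, and 55.5, 68.1 and 54.6 at 24 months. It was highest at 24 months and rose by 1.13 against 6 months (SE 0.281, limma adjusted p = 0.0122), a call lost without 24 months replicate 2 (1.03, adjusted p = 0.0593). Psmb10, which replaces Psmb7, had 1391, 1490 and 1578 at P18, 1373, 1562 and 1540 at P75, 742, 845 and 934 at 6 months, and 971, 922 and 910 at 24 months. Like the core subunits it fell at 6 months against P75 without overlap (-0.83 ± 0.093, limma adjusted p = 3.06e-06).

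Beside the rise of Psmb8 and Psmb9 at 24 months against 6 months, 6 of 10 interferon response genes rose and none fell, and 5 of 10 microglial markers rose and none fell, where 10.8% of all tested genes rose. None of either list was lower at an unadjusted p under 0.05 by limma. The microglial markers summed to 0.0634% to 0.0818% of all counts at 24 months and 0.0461% to 0.0544% at 6 months, and the interferon response genes to 0.00833% to 0.00954% at 24 months and 0.00526% to 0.00899% at 6 months. No marker of either list was at 0, and their part in the rise was not tested.

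Of 13 listed partners of the proteasome, 12 were tested, and 8 fell and 1 rose at 6 months against P75. Of all tested genes 25.4% fell and 27.1% rose there. Pomp, the maturation factor of the core, fell by 0.84 ± 0.103 (limma adjusted p = 7.04e-06), to 2902, 3578 and 3557 normalised counts at 6 months, against 5398, 6640 and 5915 at P75. Shfm1, the small lid subunit known as Dss1, fell by 1.20 ± 0.118 (adjusted p = 9.35e-07), to 1115, 1336 and 1649 at 6 months, against 2763, 3088 and 3522 at P75. Neither gene's ages overlapped. Zfand5, which binds the proteasome and raises its activity, fell by 0.92 ± 0.099, and Akirin2, which carries proteasomes into the nucleus, by 0.51 ± 0.099 (adjusted p = 2.13e-06 and 4.09e-04). All 4 genes still fell with the length trend removed, Zfand5 by 1.10. Usp14, the deubiquitinase bound to the 19S particle, was the partner that rose, by 0.47 ± 0.088 (adjusted p = 3.24e-04), and it is named here after its values were seen.

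The gene of the transcription factor Nrf1 went the opposite way to the core at 6 months against P75 and at 24 months against P18. At P75 against P18 it rose while 12 of the 14 core subunits did not pass. With the length trend removed it rose by 0.55 at 6 months against P75, beside a core median of -0.22. Nfe2l1 had 3652, 3798 and 3326 normalised counts at P18, 6587, 5557 and 5290 at P75, 9139, 10841 and 8692 at 6 months, and 8869, 9251 and 9573 at 24 months. P18, P75 and the older ages did not overlap. It rose by 0.69 ± 0.105 at P75 against P18 (limma adjusted p = 9.39e-05) and by 0.72 ± 0.105 at 6 months against P75 (adjusted p = 3.56e-05), and stood 1.36 higher at 24 months than at P18 (adjusted p = 1.4e-08). Nrf1 is controlled largely as a protein, by cleavage and turnover, which mRNA does not show. Nfe2l3, its close relative, rose by 0.81 ± 0.148 at P75 against P18 (limma adjusted p = 4.39e-04), to 215, 159 and 222 at P75, against 130, 114 and 95.4 at P18. Ngly1, the glycosidase that edits Nrf1, fell by 0.39 at 6 months against P75 (adjusted p = 0.00349), and Maff, a small Maf partner, passed the F test (adjusted p = 0.012) but no single comparison. Of all 9 genes of this list, 2 rose and 1 fell at 6 months against P75, where 27.1% of all tested genes rose and 25.4% fell.

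Of 18 genes that make ubiquitin conjugates and deliver them to the proteasome, 9 rose and 4 fell at 6 months against P75, where 27.1% of all tested genes rose and 25.4% fell. Their summed share of all counts was lower at 6 months, at 0.480% to 0.519%, against 0.546% to 0.606% at P75, so the count of genes and the sum went opposite ways. At 24 months against 6 months 7 of the 18 genes were lower and none higher by limma, with 2 higher at an unadjusted p under 0.05. In that comparison 8.34% of all tested genes fell and 10.8% rose. Uba1, the main ubiquitin-activating enzyme, averaged 4847 ± 685 at P18 and 3793 ± 516 at P75, then 7005 ± 480 at 6 months and 4719 ± 233 at 24 months (SD, n = 3 each), and rose by 0.89 ± 0.113 at 6 months against P75 (limma adjusted p = 9.33e-06). Ubqln1, a shuttle that carries ubiquitinated proteins to the 19S particle, rose at P75 (0.41) and at 6 months (0.36) and fell at 24 months against 6 months (-0.36). Its rise at 6 months was 0.22 with the length trend removed (adjusted p = 0.0564), and its fall at 24 months was lost without 6 months replicate 1 or 2 or any of the 3 samples at 24 months, with adjusted p-values from 0.0504 to 0.0848. Nploc4, an adaptor of the p97 unfoldase, fell at P75 against P18 (-0.60) and at 24 months against 6 months (-0.34), each with an SE of 0.081, and the second call was lost without 6 months replicate 1 (adjusted p = 0.0528) or 24 months replicate 2 (0.056).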

How the data were processed

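RNA sequencing values of 12 samples were used, and the labels give no extraction, library, strand or batch information. The deposited values are signal: reads per gene, scaled by the authors with 1 size factor for each sample and rounded. The submitters' processing notes name TopHat, HTSeq, DESeq and the build mm9. Dividing by the smallest step of a sample gave whole reads for 100% of values in all 12 samples (tolerance 0.0061).

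Genes whose value reached 10 in at least 3 samples were tested as log2(value + 1), which understates changes of low genes. The fit used limma 3.58.1 (R 4.3.3) with a trend of variance on level, all 12 samples in 4 age groups, two-sided, with Benjamini-Hochberg adjustment over all tested genes and a threshold of 0.05. It was tested on simulated data. SE is that of the fit and SD is over samples. A gene rose or fell if it passed. On the recovered reads, edgeR 4.0.16 called 7956 genes and DESeq2 1.42.0 called 7780 at 6 months against P75, beside 7859 by limma. Lengths are those of the principal transcripts in GENCODE. Promoters come from RefSeq (GRCm38.p6). Named were the catalytic subunits, core regulators, the 4 largest changes in each direction of each comparison, the 6 lowest F-test p-values and up to 4 genes of each pathway list by F-test p; other members have shorter accounts, and 1 gene of a pathway list is not reported here. Members and lists were chosen with earlier results of these data known.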

Additional observations from a re-analysis of the deposited data

How the results depend on the processing

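The number of proteasome genes called moved by more than 1.5 times in a few fits. With samples of the 2 compared ages only, 5 genes in place of 9 were called at P75 against P18 and 8 in place of 5 at 24 months against 6 months. Leaving out each sample in turn gave 6 to 11 at P75 against P18, 29 to 35 at 6 months against P75, 2 to 8 at 24 months against 6 months, 28 to 30 at 24 months against P18 and 35 to 38 over any age. The count of 2 came without 6 months replicate 1, that of 8 without P18 replicate 3, and without 6 months replicate 2, 24 months replicate 1 or 24 months replicate 2 it was 3. With the length trend removed the counts were 11, 22, 5, 26 and 32, and 5 falls at 6 months against P75 turned, with Psmb3 at 0.026, Psmb6 at 0.0329, Psmd6 at 0.0399, Psme2 at 0.0815 and Psmg3 at 0.0071. The cause was not tested. Of 113 called changes of the named genes and members, 112 kept their call with edgeR, 112 with DESeq2, 110 with quantile normalization, 110 with the GC trend removed and 109 with values rescaled without Mbp. Removing the length trend cost the most: 89 kept their call, 19 kept their direction but no longer passed, and 5 turned. Of the 33 members called at 6 months against P75, 19 were also called with that trend removed. At P75 against P18, Psmb9 was lost with edgeR, DESeq2, quantile normalization, rescaling without Mbp and only the compared ages. The last of these also lost Psmb3, Psmb7, Psme1, Psme2, Akirin2 and Uba1 there, quantile normalization Psmb7 and rescaling without Mbp Psme2. Nfe2l3 at 24 months against 6 months was lost with quantile normalization and with rescaling without Mbp, which also lost Psmd6 at 6 months against P75. Removing the GC trend lost Psmc6 and Psmd6 at 6 months against P75 and Shfm1 at 24 months against 6 months. The samples of equal number were at most weakly correlated in their deviations from the age means (r from -0.185 to 0.165). Taken over all tested genes, this cannot exclude a shared batch that moved only some genes, and the labels name none. A fit with the replicate number as a block gave 9, 33, 5, 29 and 37 calls. Over all genes, 56.5% of the calls at 24 months against 6 months were higher, beside 44.7% with values rescaled without Mbp and 48.2% after quantile normalization, which also moved the median of all genes at 24 months against P18 to -0.11. The filter and the pseudocount moved no count by over 1.5 times. Depth limits Psma8, with 2 to 9 reads per sample, and Psmb11, with 9 to 19.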
